A study of Mus musculus with 8 samples.

Results

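Genes that make, carry, sense and break down retinoic acid were examined in the embryonic mouse cerebral cortex after loss of Taf8. The set held 9 genes, chosen by symbol among the 27179 genes of the count table: the synthesis enzymes Rdh10, Aldh1a2 and Aldh1a3, the carriers Crabp1 and Crabp2, the degrading enzyme Cyp26b1 and the nuclear receptors Rara, Rarb and Rxrg. Poly(A) RNA had been sequenced with a stranded kit from 4 Taf8-deleted embryos, given in the labels as Taf8 -/lox, and from 4 Taf8 wild-type embryos, given as Taf8 +/+, each library with its own animal number. The labels name neither the embryonic age nor the Cre driver, nor whether the wild-type embryos carried Cre. The Taf8 protein is part of TFIID, which binds core promoters and helps to bring in RNA polymerase II.

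Retinoic acid is made from vitamin A. Retinol is oxidised to retinaldehyde, chiefly by Rdh10 in the embryo, and retinaldehyde is oxidised to retinoic acid by the dehydrogenases of the Aldh1a family. Crabp1 and Crabp2 bind retinoic acid in the cell, enzymes of the Cyp26 family hydroxylate it for removal, and receptors of the RAR family, paired with receptors of the RXR family, switch genes on or off according to whether it is bound. In the embryonic forebrain the meninges are a known source, through Aldh1a2 and Rdh10, Aldh1a3 is known from the lateral ganglionic eminence, and Rarb and Rxrg are known from developing striatal neurons.

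Taf8 RNA was nearly gone in the libraries labelled as deleted. Taf8 had 0.791, 0.747, 0.486 and 0.547 CPM (read counts scaled by the TMM-adjusted library size) in the 4 Taf8-deleted libraries, against 38.5, 35.0, 32.0 and 33.7 CPM in the wild-type libraries. Library totals ran from 26312505 to 65523487 counts, so that 3 counts, taken as the floor for a count of 0, stood for 0.0458 to 0.114 CPM; this covers counting error only. The dorsal telencephalic gene Emx1 was at 59.4 ± 3.24 CPM in Taf8-deleted and 72.4 ± 5.46 CPM in wild-type libraries (SD, n = 4 each, as in every mean below; log2 fold change -0.28, edgeR adjusted p = 0.00234). Interneuron and striatal markers were read in the same libraries. Nkx2-1 was at 64.3 ± 2.63 CPM in Taf8-deleted and 74.7 ± 7.88 CPM in wild-type libraries. Isl1 was at 35.9 ± 2.64 CPM in Taf8-deleted and 46.1 ± 1.54 CPM in wild-type libraries. Emx1 therefore does not show that the samples held dorsal cells only. No animal number had its first part in both groups, and wild-type replicates 1 to 3 shared the first part 408, so anything that this part marks cannot be told apart from the genotype.

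Retinoic acid genes moved in both directions in Taf8-deleted cortex. Of the 9 genes, 8 passed the filter on low counts, and of these Rdh10 and Crabp2 were higher, Aldh1a3, Rarb, Rxrg, Crabp1 and Cyp26b1 were lower and Rara did not pass the test. Aldh1a2 was too low to enter the test. The 7 calls have to be read against a comparison in which 59.2% of the 15649 genes tested were called, 29.5% as higher and 29.6% as lower, by edgeR's quasi-likelihood test at a Benjamini-Hochberg adjusted p under 0.05. The groups did not overlap for these 7 genes, as for 53.6% of all genes tested. Aldh1a3, Rarb, Rxrg and Cyp26b1 were each called and at least 2-fold lower, as were 3.09% of all genes tested, and none of the set was called and at least 2-fold higher, as were 5.48%. The median absolute log2 fold change of the 8 tested genes was 0.97, beside 0.27 over all genes tested. The set was chosen with earlier results of these data known, so these comparisons describe it and test nothing.

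**Figure D1:**
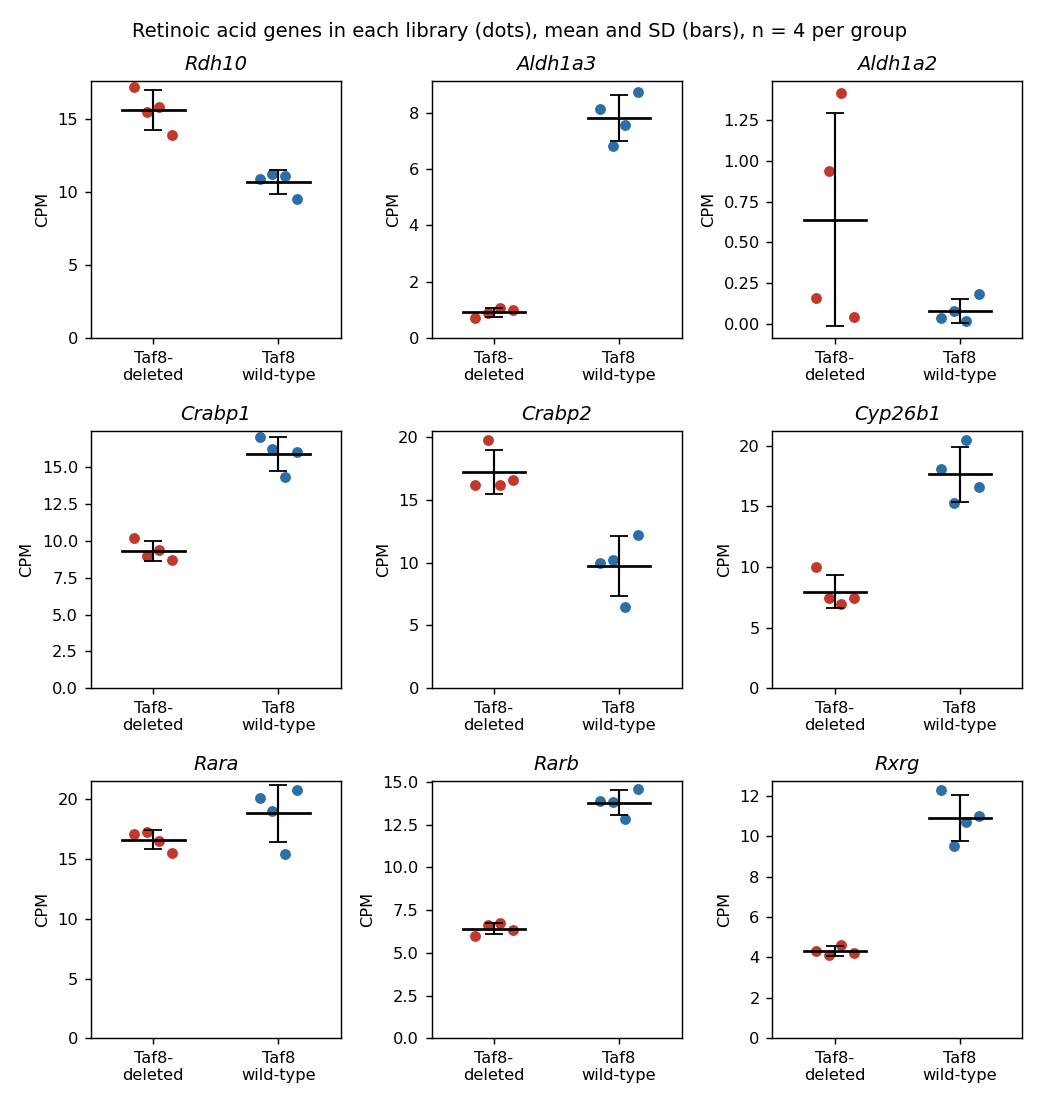
CPM of each of the 9 retinoic acid genes (vertical axes, linear, drawn to 0) in 4 Taf8-deleted and 4 Taf8 wild-type libraries; dots are libraries, the long bar is the mean and the capped line the SD. The groups are apart in 7 panels and overlap for Rara and Aldh1a2.

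The synthesis enzymes did not move together. Rdh10, the retinol dehydrogenase (Entrez gene 98711, chromosome 1, 16105882 to 16132550, mm10), had 17.2, 15.5, 15.8 and 13.9 CPM in Taf8-deleted libraries, against 10.9, 11.2, 11.1 and 9.51 CPM in wild-type libraries. Every Taf8-deleted library lay above every wild-type library. The level was 1.46-fold higher (log2 fold change 0.54, SE 0.08, adjusted p = 0.000229 by edgeR).

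Aldh1a3, a retinaldehyde dehydrogenase (Entrez gene 56847, chromosome 7, 66390892 to 66427477), showed the largest change of the set. It had 0.712, 0.909, 1.08 and 1.00 CPM in Taf8-deleted libraries, from 27 to 53 counts, against 8.13, 6.83, 7.57 and 8.72 CPM in wild-type libraries, from 245 to 484 counts. All Taf8-deleted values were far below all wild-type values and close to one another. The level was 11.9% of wild-type (log2 fold change -3.08, SE 0.14, adjusted p = 8.60e-08 by edgeR). These are bulk samples, in which fewer cells of a type and less RNA per cell cannot be told apart.

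Aldh1a2, the dehydrogenase that makes most retinoic acid in the early mouse embryo (Entrez gene 19378, chromosome 9, 71215789 to 71296243), had few reads and did not enter the test. Its counts were 6, 29, 38 and 2 in Taf8-deleted replicates 1 to 4 and 1, 3, 1 and 7 in wild-type replicates 1 to 4. That is 0.158, 0.941, 1.42 and 0.0377 CPM in Taf8-deleted libraries, against 0.0332, 0.0748, 0.0156 and 0.184 CPM in wild-type libraries. Taf8-deleted replicates 2 and 3 were above every wild-type library, replicates 1 and 4 lay among the wild-type values and the groups overlapped. By exact permutation of the 8 libraries over 70 arrangements the two-sided p for log2 of CPM plus 2 was 0.200. The smallest p this design allows is 0.0286. The added 2 CPM is larger than every Aldh1a2 value, so this test is not on the scale of the fold changes below. With no filter on low counts the edgeR log2 fold change was 2.99 (standard error 0.98, adjusted p = 0.0257), and DESeq2 gave 3.06 (adjusted p = 0.00444).

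Markers of meningeal fibroblasts differed between the same libraries. Of the 16 markers, 10 were higher in Taf8-deleted cortex and 0 were lower. That is 62.5% called, close to the 59.2% of all genes tested, of which 29.5% were higher and 29.6% lower. None of the 16 markers was at 0 in all libraries. Their summed level was 111 to 264 CPM in Taf8-deleted and 69.4 to 105 CPM in wild-type libraries. Their mean log2 CPM was 1.93, 2.49, 2.64 and 0.40 in Taf8-deleted replicates 1 to 4 and 0.59, 0.58, 0.30 and 1.23 in wild-type replicates 1 to 4. The Taf8-deleted libraries had the same order by Aldh1a2 and by these markers, and wild-type replicate 4 was the highest of its group in both. Wild-type replicates 1 and 3 had 1 Aldh1a2 count each, under the floor of 3 counts, so their order is not resolved. By their summed level, Taf8-deleted replicate 4, at 111 CPM, was just above the highest wild-type library, while by their mean log2 CPM it lay among the wild-type libraries. The part of the meningeal markers in the Aldh1a2, Rdh10 and Crabp2 values was not tested. With the marker level as a covariate the log2 fold change of Rdh10 was 0.49 (edgeR, adjusted p = 0.00489). The marker level was itself higher in most Taf8-deleted libraries, so this fit cannot separate it from the genotype.

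**Figure D2:**
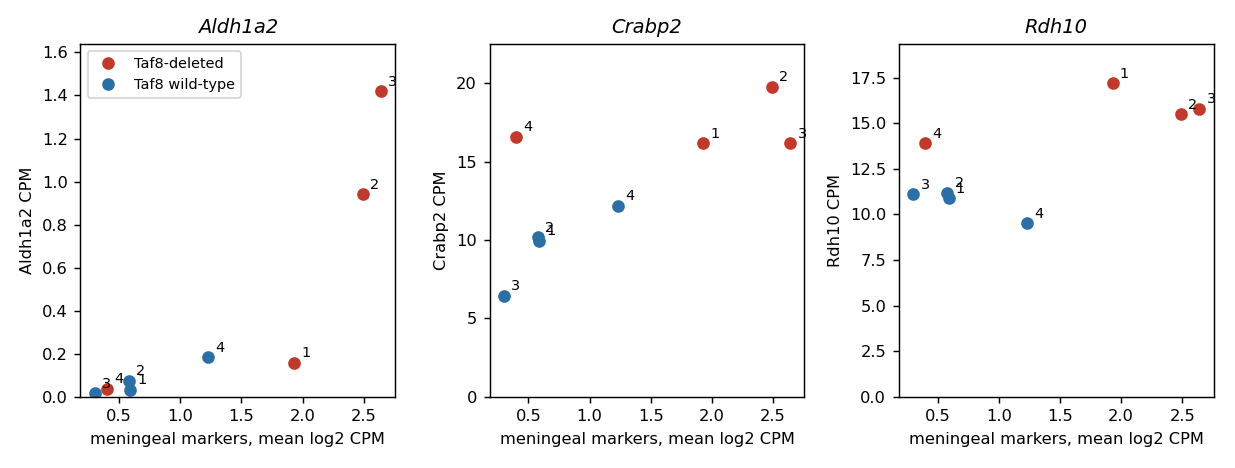
Level of Aldh1a2, Crabp2 and Rdh10 in CPM (vertical axes) against the mean log2 CPM of 16 meningeal fibroblast markers (horizontal axes) in each library, numbered by replicate. Taf8-deleted replicates 2 and 3, at 2.49 and 2.64 on the horizontal axis, hold the highest Aldh1a2 values, and Taf8-deleted replicate 4, at 0.40, the lowest of its group.

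The other retinaldehyde dehydrogenase genes were near the floor in both groups. Aldh1a1 had 0.193 ± 0.0230 CPM in Taf8-deleted and 0.229 ± 0.140 CPM in wild-type libraries, and Aldh1a7 and Aldh8a1 were lower still. Per length, in RPKM (CPM divided by the length in kilobases), Aldh1a1, Aldh1a2 and Aldh1a3 summed to 0.650 ± 0.330 in Taf8-deleted and 2.44 ± 0.291 in wild-type cortex. Aldh1a3 supplied 30.2% to 74.6% of that sum in Taf8-deleted libraries and 91.3% to 97.0% in wild-type libraries. Aldh1a2 supplied 4.23% to 59.4% of it in Taf8-deleted and 0.301% to 2.95% in wild-type libraries.

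Of the enzymes that pass retinol and retinaldehyde back and forth, 8 were tested, with 2 higher and 3 lower. That is 62.5% called, close to the 59.2% of all genes tested. Rdh14, a retinal reductase, had 22.3 ± 0.860 CPM in Taf8-deleted and 16.1 ± 1.58 CPM in wild-type cortex (log2 fold change 0.47, edgeR adjusted p = 0.000263). Rdh12, another retinal reductase, was 1.70-fold higher at a low level of 1.12 ± 0.144 CPM in Taf8-deleted against 0.651 ± 0.0851 CPM in wild-type cortex. Dhrs3, which returns retinaldehyde to retinol, was at 2.06 ± 0.413 CPM in Taf8-deleted and 2.90 ± 0.712 CPM in wild-type cortex. Its groups overlapped and its call (log2 fold change -0.52, edgeR adjusted p = 0.0477) was lost under 11 of 20 alternatives, among them the fits without Taf8-deleted replicate 1 (-0.54) or 4 (-0.40) and without wild-type replicate 3 (-0.33) or 4 (-0.55).

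The 2 cellular carriers of retinoic acid changed in opposite directions. Crabp1, which holds retinoic acid in the cytoplasm (Entrez gene 12903, chromosome 9, 54764748 to 54773110), had 10.2, 8.99, 9.39 and 8.68 CPM in Taf8-deleted libraries, against 17.0, 16.2, 14.3 and 16.0 CPM in wild-type libraries. All Taf8-deleted values were below all wild-type values, and the gene was 1.70-fold lower (log2 fold change -0.77, SE 0.08, edgeR adjusted p = 1.33e-05).

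Crabp2, which delivers retinoic acid to its receptors in the nucleus (Entrez gene 12904, chromosome 3, 87948693 to 87953372), had 16.2, 19.8, 16.2 and 16.6 CPM in Taf8-deleted libraries, against 9.96, 10.2, 6.46 and 12.2 CPM in wild-type libraries. The groups did not overlap, and the wild-type libraries were the more spread. Crabp2 was 1.78-fold higher (log2 fold change 0.83, SE 0.16, edgeR adjusted p = 0.00131). With the meningeal marker level as a covariate the log2 fold change was 0.68 (edgeR adjusted p = 0.0157), a fit that cannot separate that level from the genotype.

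Per length the order of the carriers was turned round. Crabp2 stood at 19.1 ± 1.95 RPKM and Crabp1 at 12.6 ± 0.874 RPKM in Taf8-deleted cortex, while in wild-type cortex Crabp2 stood at 10.8 ± 2.66 and Crabp1 at 21.4 ± 1.54 RPKM. Crabp2 made up 60.3% ± 3.32 of their sum in Taf8-deleted and 33.1% ± 4.72 in wild-type cortex. The sum itself was 31.7 ± 1.80 RPKM in Taf8-deleted and 32.2 ± 3.93 RPKM in wild-type cortex, a difference smaller than either SD. Fabp5, a fatty acid carrier that can also bind retinoic acid, was 1.95-fold higher, at 194, 138, 201 and 205 CPM in Taf8-deleted against 104, 66.8, 142 and 64.9 CPM in wild-type libraries (edgeR adjusted p = 0.00493). Its groups met, with Taf8-deleted replicate 2 just under wild-type replicate 3.

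Of 7 tested genes of retinol uptake and storage 4 were lower and 0 higher. That is 57.1% called, all as lower, beside 29.6% lower and 29.5% higher over all genes tested. Lrat, which esterifies retinol for storage, was at 0.339 ± 0.102 CPM in Taf8-deleted and 0.146 ± 0.0922 CPM in wild-type cortex and just missed the threshold (log2 fold change 1.04, SE 0.41, edgeR unadjusted p = 0.0296), with groups that overlapped. Rbp4, the carrier of retinol in blood, had 0.237, 0.357, 0.411 and 0.340 CPM in Taf8-deleted against 1.69, 1.77, 2.39 and 1.66 CPM in wild-type libraries. That is a 5.66-fold lower level (log2 fold change -2.50, SE 0.22, edgeR adjusted p = 4.56e-06). Stra6l, a relative of the retinol transporter gene Stra6, had 2.48 ± 0.285 CPM in Taf8-deleted and 4.08 ± 0.526 CPM in wild-type cortex. Ttr, which carries retinol with Rbp4 and is made in bulk by the choroid plexus, ran from 0.566 to 1117 CPM in Taf8-deleted and from 1.74 to 366 CPM in wild-type libraries, and its difference did not pass the test.

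Cyp26b1, which hydroxylates retinoic acid and so limits its reach (Entrez gene 232174, chromosome 6, 84571414 to 84593908), was lower. It had 9.97, 7.43, 6.96 and 7.44 CPM in Taf8-deleted libraries, against 18.1, 15.3, 20.5 and 16.6 CPM in wild-type libraries. Taf8-deleted replicate 1 was above its group and still below every wild-type library. The level was 2.22-fold lower (log2 fold change -1.15, SE 0.13, edgeR adjusted p = 2.25e-05). The related genes Cyp26a1 and Cyp26c1 had mean levels of at most 0.0556 CPM in either group, so Cyp26b1 made up 97.5% ± 1.67 of the Cyp26 RPKM in Taf8-deleted and 99.0% ± 0.703 in wild-type cortex.

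Of the receptors, Rarb and Rxrg fell and Rara did not pass the test. Rara (Entrez gene 19401, chromosome 11, 98927800 to 98974942), the broadly expressed retinoic acid receptor, had 17.1, 17.2, 16.5 and 15.5 CPM in Taf8-deleted libraries, against 20.1, 19.0, 15.4 and 20.7 CPM in wild-type libraries. The groups overlapped through wild-type replicate 3. The log2 fold change was -0.18 (SE 0.09, edgeR adjusted p = 0.115), and without wild-type replicate 3 it was -0.27 and passed (edgeR adjusted p = 0.00365).

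Rarb, a receptor whose own gene is a classic target of retinoic acid (Entrez gene 218772, chromosome 14, 16430839 to 17082331), had 5.99, 6.62, 6.73 and 6.32 CPM in Taf8-deleted libraries, against 13.9, 13.8, 12.8 and 14.6 CPM in wild-type libraries. Both groups were tight and far apart. Rarb was 2.15-fold lower (log2 fold change -1.10, SE 0.07, edgeR adjusted p = 6.61e-07). GENCODE M21 places Top2b on the opposite strand of this locus, where its exons share 1793 of 5265 Rarb exon bases (34.1%), and Gm48162, antisense to Rarb, shares 227. The deposited Rarb length is 2775 bases, and the share of it that overlaps these genes was not measured. The strand setting of the counting is not given in the sources used here, so the Rarb level is uncertain by an unknown amount. Top2b itself had 542 ± 24.6 CPM in Taf8-deleted and 768 ± 64.7 CPM in wild-type cortex (log2 fold change -0.50).

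Rxrg, a partner receptor with a narrow expression in brain (Entrez gene 20183, chromosome 1, 167598362 to 167639623), had 4.30, 4.12, 4.64 and 4.23 CPM in Taf8-deleted libraries, against 12.3, 9.52, 10.7 and 11.0 CPM in wild-type libraries. The highest Taf8-deleted value, 4.64 CPM, lay well below the lowest wild-type value, 9.52 CPM. Rxrg was 2.52-fold lower (log2 fold change -1.33, SE 0.09, edgeR adjusted p = 1.13e-06).

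Within their families Rarb and Rxrg held smaller shares of the RNA in Taf8-deleted cortex. Rarg was 1.46-fold lower, at 6.24 ± 0.693 CPM in Taf8-deleted and 9.07 ± 0.517 CPM in wild-type cortex (edgeR adjusted p = 0.000564). Rara made up 48.6% ± 1.65, Rarb 28.0% ± 1.37 and Rarg 23.4% ± 1.46 of the RAR RPKM in Taf8-deleted cortex. In wild-type cortex Rara made up 36.8% ± 2.52, Rarb 40.3% ± 0.651 and Rarg 23.0% ± 1.97. The RAR sum was 8.27 ± 0.432 RPKM in Taf8-deleted and 12.3 ± 0.835 RPKM in wild-type cortex. The RAR shares and this sum carry the uncertainty of the Rarb level from the overlap with Top2b and Gm48162.

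Rxrb was the main RXR gene in both groups and did not pass the test, at 92.0 ± 3.84 CPM in Taf8-deleted and 96.7 ± 3.73 CPM in wild-type cortex (log2 fold change -0.07, SE 0.04). Rxra was 1.28-fold higher, at 49.1 ± 1.01 CPM in Taf8-deleted and 38.3 ± 3.52 CPM in wild-type cortex (edgeR adjusted p = 0.000599). Rxrg made up 4.12% ± 0.147 of the RXR RPKM in Taf8-deleted and 9.84% ± 1.07 in wild-type cortex. The RXR sum was 44.4 ± 1.62 RPKM in Taf8-deleted and 46.8 ± 1.94 RPKM in wild-type cortex.

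**Figure D3:**
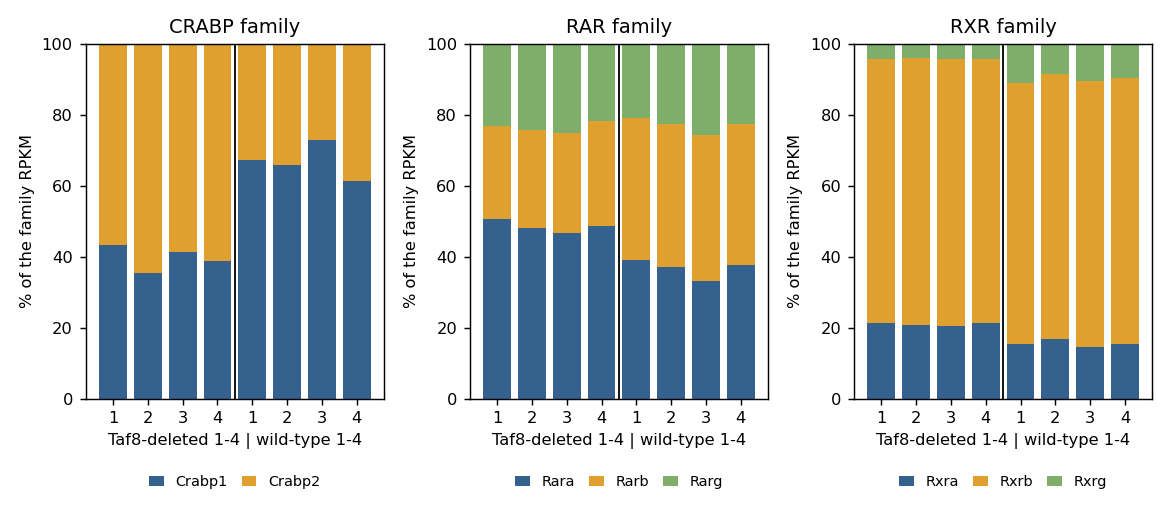
Share of each gene in the RPKM of its family (vertical axes, percent) in each library, Taf8-deleted replicates 1 to 4 left of the line and Taf8 wild-type replicates 1 to 4 right of it. Crabp2 makes up 56.8% to 64.5% of the CRABP bars in Taf8-deleted libraries and 27.2% to 38.6% in wild-type libraries, and Rarb and Rxrg take smaller shares in every Taf8-deleted library. The RAR bars carry the uncertainty of the Rarb level.

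Promoter windows from RefSeq (GRCm38.p6, from 250 bases before to 50 bases after a start site) were searched for the hexamers that RAR and RXR bind. These were AGGTCA, its variant AGTTCA, the form GGGTCA and the form GGTTCA, on either strand, singly or as direct repeats spaced by 1, 2 or 5 bases, each hexamer of a repeat being counted singly as well. The table held windows for 6 of the 9 genes, Rara, Rarb, Rxrg, Crabp1, Cyp26b1 and Aldh1a2. The windows of the 4 lower genes in the table are shown because the set holds the receptors that bind such letters; capitals mark the matches, and a repeat is in capitals throughout.
Rarb chr14:16575427-16575726, minus strand: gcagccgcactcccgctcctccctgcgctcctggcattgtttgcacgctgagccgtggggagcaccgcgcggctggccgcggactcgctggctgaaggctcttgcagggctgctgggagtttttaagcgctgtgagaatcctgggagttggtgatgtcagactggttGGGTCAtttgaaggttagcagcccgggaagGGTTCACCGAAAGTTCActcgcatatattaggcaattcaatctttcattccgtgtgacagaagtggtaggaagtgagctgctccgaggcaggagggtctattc
Rxrg chr1:167598112-167598411, plus strand: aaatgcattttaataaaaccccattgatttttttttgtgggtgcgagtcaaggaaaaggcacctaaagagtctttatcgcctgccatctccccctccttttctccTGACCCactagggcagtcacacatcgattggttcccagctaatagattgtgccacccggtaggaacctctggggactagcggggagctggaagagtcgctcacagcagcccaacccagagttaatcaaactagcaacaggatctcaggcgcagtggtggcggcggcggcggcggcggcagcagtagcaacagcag
Rxrg chr1:167618015-167618314, plus strand: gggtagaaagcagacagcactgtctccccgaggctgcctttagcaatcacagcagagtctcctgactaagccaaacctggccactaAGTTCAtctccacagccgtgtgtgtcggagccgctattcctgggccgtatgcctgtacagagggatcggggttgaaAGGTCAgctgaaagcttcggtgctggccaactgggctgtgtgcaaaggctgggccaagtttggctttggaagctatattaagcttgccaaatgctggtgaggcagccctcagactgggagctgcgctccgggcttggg
Cyp26b1 chr6:84593761-84594060, minus strand: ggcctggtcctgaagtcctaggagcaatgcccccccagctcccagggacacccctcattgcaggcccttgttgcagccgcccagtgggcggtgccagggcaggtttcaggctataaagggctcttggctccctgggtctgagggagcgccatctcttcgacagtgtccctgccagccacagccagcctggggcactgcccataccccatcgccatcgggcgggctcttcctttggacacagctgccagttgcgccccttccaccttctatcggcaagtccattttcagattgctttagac
Crabp1 chr9:54764498-54764797, plus strand: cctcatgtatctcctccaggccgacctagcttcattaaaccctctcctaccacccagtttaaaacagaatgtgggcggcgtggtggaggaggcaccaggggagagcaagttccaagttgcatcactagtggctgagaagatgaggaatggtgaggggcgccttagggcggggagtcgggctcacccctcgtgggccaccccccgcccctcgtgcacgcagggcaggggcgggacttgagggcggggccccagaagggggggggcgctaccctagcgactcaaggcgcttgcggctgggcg

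The Rarb window held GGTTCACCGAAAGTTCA, a direct repeat with a spacer of 5 bases that starts 53 bases before the start site and is the textbook retinoic acid response element of this gene. Such a repeat stood in 32 of the 32851 promoter windows of the table, or 0.0974%, and in none of the other 9 windows of the set. Repeats with a spacer of 1 or 2 bases stood in 0.222% and 0.268% of all windows and in 0 of the set. Rarb also held a single GGGTCA 83 bases before its start. Single hexamers are common, present in 43.7% of all windows. Rxrg had 1 in its upstream window and 2 in its downstream window, the Rara windows held 0, 0, 4 and 1, and Crabp1, Cyp26b1 and Aldh1a2 held 0. A match is a description of the letters and does not show binding.

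The 32 windows with the spaced repeat belonged to 31 genes, of which 7 were tested. Of these 5 were lower, Rarb, Prokr2 (log2 fold change -1.31), Syndig1 (-1.05), Gm1043 (-1.01) and Blvrb (-0.38), and Hbb-y, an embryonic globin gene, was higher (0.62), beside the 29.6% and 29.5% of all genes tested that were lower and higher. The seventh, Cfap45, had a log2 fold change of 0.74 and did not pass the test (edgeR adjusted p = 0.175). The genes of this group were named after their values were seen.

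Of 10 receptor coregulators 3 were higher and 4 lower, beside 29.5% higher and 29.6% lower over all genes tested. Nrip1, a corepressor that binds liganded receptors, had 14.8, 13.7, 13.9 and 13.5 CPM in Taf8-deleted libraries, against 23.3, 22.9, 25.6 and 22.4 CPM in wild-type libraries. Its log2 fold change was -0.75 (SE 0.06, edgeR adjusted p = 2.80e-06). Hdac3, the deacetylase of the NCoR corepressor complex, was 1.39-fold higher, at 178 to 192 CPM in Taf8-deleted and 127 to 139 CPM in wild-type libraries. Of 10 genes known to respond to retinoic acid, 7 were tested. Of these 3 were lower, 0 higher and 4 not past the threshold. That is 42.9% called, beside 59.2% of all genes tested, and the median of the log2 fold changes was -0.19.

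Of 51 other retinoid genes 36 were tested, with 7 higher, 15 lower and 14 not past the threshold. That is 61.1% called, close to the 59.2% of all genes tested, of which 29.5% were higher and 29.6% lower. The median log2 fold change was -0.10, beside 0.01 for all genes. The median absolute log2 fold change was 0.33, beside 0.27 for all genes.

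**Figure D4:**
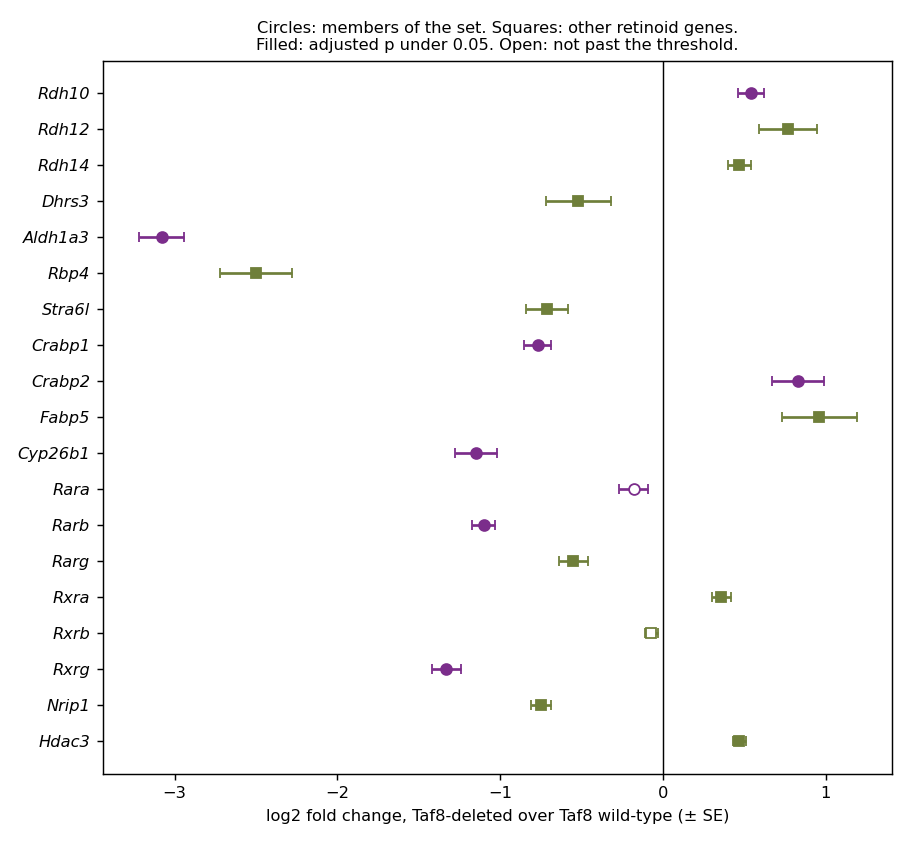
Log2 fold change of Taf8-deleted over Taf8 wild-type cortex with its standard error (horizontal axis) for the 8 tested genes of the set (circles) and other named retinoid genes that were tested (squares). Genes are ordered by role from enzymes to receptors and coregulators. Lrat and Ttr, which were tested and did not pass, are not drawn. Aldh1a3 at -3.08 and Rbp4 at -2.50 lie farthest to the left, and the open symbols, Rara and Rxrb, did not pass the test.

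Levels within the set were compared per length. In Taf8-deleted cortex the order was Crabp2 at 19.1, Crabp1 at 12.6, Rdh10 at 6.79, Rara at 4.01, Rarb at 2.31, Rxrg at 1.83, Cyp26b1 at 1.64, Aldh1a2 at 0.282 and Aldh1a3 at 0.272 RPKM. Of these neighbours Rxrg and Cyp26b1, and Aldh1a2 and Aldh1a3, overlapped in their libraries. In wild-type cortex the order was Crabp1 at 21.4, Crabp2 at 10.8, Rarb at 4.96, Rdh10 at 4.65, Rxrg at 4.60, Rara at 4.55, Cyp26b1 at 3.64, Aldh1a3 at 2.30 and Aldh1a2 at 0.0340 RPKM. From Rarb down to Cyp26b1 neighbours overlapped in wild-type libraries, while Cyp26b1 and Aldh1a3 were apart.

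Markers of cell types that express several of these genes, or that the cortex could hold, were measured in the same libraries. The counts below stand beside 59.2% called over all genes tested, 29.5% as higher and 29.6% as lower. Lateral ganglionic eminence and striatal markers were lower in 9 of 13 tested genes and higher in 1, with a summed level of 255 to 271 CPM in Taf8-deleted and 303 to 335 CPM in wild-type libraries; Ikzf1 and Tac1 had log2 fold changes of -1.94 and -1.25. Interneuron markers were lower in 10 of 14 and higher in 3 (1033 to 1060 CPM in Taf8-deleted against 1222 to 1392 CPM in wild-type libraries), and Gad2 and Lhx6 had log2 fold changes of -1.19 and -1.07. Deep-layer markers were lower in 10 of 10 (1409 to 1651 CPM in Taf8-deleted against 2244 to 2712 CPM in wild-type libraries), and upper-layer markers in 7 of 9 with 1 higher. No marker of these 4 lists was at 0 in all libraries. The part of these cell types in the lower Aldh1a3, Rarb, Rxrg, Crabp1 and Cyp26b1 was not tested. Vascular markers were higher in 12 of 12 (264 to 337 CPM in Taf8-deleted against 218 to 235 CPM in wild-type libraries), radial glia markers in 6 of 10 with 3 lower, Cajal-Retzius markers in 4 of 9 with 2 lower, and choroid plexus markers in 1 of 10 with 0 lower.

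Profiles across the 8 libraries were compared by the root mean square difference of log2 CPM, each gene taken relative to its wild-type mean, over 13905 genes. Nearest to Aldh1a3 were Scd1, Gipr and Sstr3, at 0.25, 0.26 and 0.31. Nearest to Rarb were Mrpl54, Banf1 and Nrde2, at 0.03 to 0.05, and nearest to Rxrg were Rnaseh2b, Kcng1 and Cplx2, at 0.08 to 0.09. Crabp1 was nearest to Fgd3, Arl4d and Hip1r (0.05 to 0.07), and Cyp26b1 to Kcnq3, Emp2 and Adamts18 (0.08 to 0.11). Rdh10 was nearest to Pms1, Abcc9 and Glb1l (0.06 to 0.07), and Crabp2 to Gm14230, Neurl2 and Sil1 (0.11 to 0.14). No gene of the set was among the 3 nearest of another. With only 3 kept out of 13905 genes, this does not tell whether genes of the set vary together.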

How the data were processed

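Polyadenylated RNA of 8 embryonic cortices, 4 Taf8-deleted and 4 Taf8 wild-type by the labels, was analysed. The authors deposited raw read counts per Entrez gene with the gene length, made with Subread 1.5.0 and featureCounts on mm10 per the submitters' processing notes. No source used here gives the annotation, strand setting or treatment of multi-mapping reads. Gene positions and symbols are RefSeq's for GRCm38.p6, with a symbol for 25275 of 27179 genes.

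The edgeR 4.0.16 quasi-likelihood F-test (R 4.3.3) was run on TMM-scaled counts of the 15649 genes that passed filterByExpr, comparing the 2 groups, with Benjamini-Hochberg adjusted p-values and a threshold of 0.05. An SE is the size of the log2 fold change divided by the root of F. RPKM use the deposited length. The steps were tested on simulated data in which most genes were unchanged, whereas 59.2% of the genes tested were called here. CPM are relative, so a change shared by all genes would not show.

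The members and lists were chosen with earlier results of these data known. Named are Taf8, the members, other genes of their families, up to 5 other retinoid genes each way by fold change with a mean of at least 1 CPM, up to 2 markers per list by adjusted p and the 3 nearest profiles per called member. Emx1, Nkx2-1, Isl1, Lrat, Ttr, Top2b and Gm48162 were added after their values or positions were seen. The counts of 1 of the 10 marker lists are not reported here. Alternatives were other scalings and filters, DESeq2 1.42.0, limma 3.58.1 with voom, a replicate block, the meningeal level as a covariate, a test against a 1.2-fold change, a threshold of 0.01 and each library left out. A fit without Taf8-deleted replicate 1 and wild-type replicate 4, highest of their groups in choroid plexus markers, was chosen after seeing the data.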

Additional observations from a re-analysis of the deposited data

Results flagged for a closer look

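Each library was compared with the other 3 of its group, over 52 groups of 4 values, and 6 values stood apart by a gap larger than Dixon's 95% limit; chance gives about 1 in 20. Crabp2 was 19.8 CPM in Taf8-deleted replicate 2, against 16.2 to 16.6 CPM in the other Taf8-deleted libraries. Cyp26b1 was 9.97 CPM in Taf8-deleted replicate 1, against 6.96 to 7.44 CPM in the others of its group. Fabp5 was 138 CPM in Taf8-deleted replicate 2, against 194 to 205 CPM in the others. Aldh1a7 was at 0 CPM in Taf8-deleted replicate 1, against 0.0325 to 0.0377 CPM in the others, all below the floor of 3 counts. Rdh10 was 9.51 CPM in wild-type replicate 4, against 10.9 to 11.2 CPM in the other wild-type libraries, and Rbp4 was 2.39 CPM in wild-type replicate 3, against 1.66 to 1.77 CPM.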

How the results depend on the processing

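The calls of Aldh1a3, Rdh10, Rarb, Rxrg, Crabp1, Crabp2 and Cyp26b1 kept their direction and stayed past the threshold under all 20 alternatives. All of these used the deposited counts, so they do not address the overlap of Rarb with Top2b. The log2 fold change ran from -3.16 to -2.91 for Aldh1a3, from 0.44 to 0.59 for Rdh10, from -1.16 to -1.04 for Rarb, from -1.41 to -1.28 for Rxrg, from -0.83 to -0.73 for Crabp1, from 0.67 to 0.99 for Crabp2 and from -1.30 to -1.07 for Cyp26b1. The members counted as higher were 2, or 3 with no filter and with DESeq2, where Aldh1a2 was added. The members counted as lower were 5, or 6 without wild-type replicate 3, where Rara was added. Against a 1.2-fold change 2307 genes were higher and 2328 lower, and of the other retinoid genes 4 were higher and 7 lower, since that test asks for a larger change; Rxra then lost its call (adjusted p = 0.0726). Rxrb passed without wild-type replicate 3 (-0.10). Leaving out each library gave 3999 to 4721 genes higher and 4405 to 4729 lower, beside 4624 and 4633 with all. The scalings moved the median of all genes by at most 0.04 on the log2 scale. With a replicate block 4115 genes were higher and 4170 lower; 2 members were higher and 5 lower, as without it, and of the other retinoid genes 7 were higher and 13 lower. Same-numbered libraries had deviations correlated at -0.285, 0.014, -0.067 and -0.464, so the samples share only a number. Depth limits Aldh1a2, with 75 counts over the Taf8-deleted and 12 over the wild-type libraries.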
